A study of Mus musculus with 6 samples.

Results

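The genes examined here are 36 mouse genes of DNA replication and S phase, chosen by name and grouped by role, from origin licensing through the MCM helicase, the replicative polymerases and Okazaki fragment joining to nucleotide supply and control of the G1/S transition. Probes were assigned to a gene through the RefSeq transcript that the array files give for each probe. All 36 genes were named by at least 1 probe, with 41 probes in all, among 20972 genes named on the array. A gene was tested if it had a probe that was well above background, the scanner software's flag for a measured signal, on both arrays of at least 1 group. This held for 35 of the 36 genes, among 14595 genes tested, and those 35 were well above background on all 6 arrays. The single probe of Ccne2, which encodes cyclin E2, was not well above background on any array and was not tested.

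Gene expression was measured on 6 one-colour arrays, each holding RNA from 1 clone of ZHBTc4 cells. ZHBTc4 is a mouse embryonic stem cell line whose own Oct4 alleles are disrupted and whose Oct4 transgene is silenced by tetracycline. Per the labels' protocols, every group was kept in tetracycline at 2 µg/mL, transfected with a plasmid whose name carries the CAG promoter, given puromycin at 1 µg/mL from day 2, and picked as colonies at day 9. The groups differ in the rescuing POUV protein. Clones 1 and 2 of the mOct4 group carried mouse OCT4, clones 4 and 5 of the LcPOU5F1 group carried POU5F1 of the coelacanth, and clones 1 and 2 of the LcPOU5F3 group carried its paralog POU5F3. The cells grew in serum and LIF on gelatin. All clones derive from the same parental line, so the spread behind the p-values is that between colonies picked from it, and the small number of arrays limits the precision.

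DNA replication begins when the origin recognition complex, with CDC6 and CDT1, loads the MCM2-7 helicase onto origins in G1. The kinases CDK and DBF4-CDC7, together with MCM10, CDC45 and the GINS complex, then switch the helicase on, and the polymerases copy the unwound strands with the sliding clamp PCNA. Many of these genes are transcribed in late G1 under E2F factors, and embryonic stem cells are known for a short G1 and a large share of cells in S phase.

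Values are log2 signals relative to the 75th percentile of the same array, so that 0 is the level of the 75th percentile and a difference of 1 is a doubling. Levels are compared for the same probe between arrays and never between genes. A difference was called when its p-value from limma, adjusted by Benjamini-Hochberg over all 14595 genes, was under 0.05. In bulk RNA, fewer cells in S phase and less RNA per cell cannot be told apart. The share of probes flagged as well above background ran from 43.5% to 57.8% over the arrays, and no spot was saturated. The distance between an array's 75th percentile and its median ranged from 2.61 to 3.44 on the log2 scale, and both of these extremes were LcPOU5F3 clones.

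Every replication gene that passed the test was lower in the LcPOU5F3 clones than in the group compared with them, and none passed in LcPOU5F1 against mOct4. In LcPOU5F3 against mOct4, 13 of 35 genes were called lower and 0 higher, whereas over all genes tested 11.7% were called lower, 11.8% higher and 23.5% in either direction. The called genes were Orc1, Cdt1, Mcm3, Mcm10, Cdc45, Gins1, Dbf4, Pola1, Pold1, Pole, Rfc5, Lig1 and E2f1, with falls between 1.61-fold and 2.27-fold and a median of 1.86-fold. Both LcPOU5F3 clones lay below both mOct4 clones for 31 of the 35 genes (88.6%) and above for 1 gene, against 38.3% and 30.2% of all genes tested. The median log2 difference of the 35 genes was -0.54, beside -0.09 over all genes tested, and the differences ran from -1.18 for Dbf4 to 0.26 for Rrm1. An unadjusted p under 0.05 was reached by 25 of the 35 genes and by 40.2% of all genes. When each array was centred on its own median instead, 0 of the 35 genes were called by limma, beside 16.8% of all genes tested. In that setting 5 of the 35 genes had an unadjusted p under 0.05, beside 3607 of all 14595. The standard error of a difference lay between 0.13 and 0.26 for these genes.

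**Figure D1:**
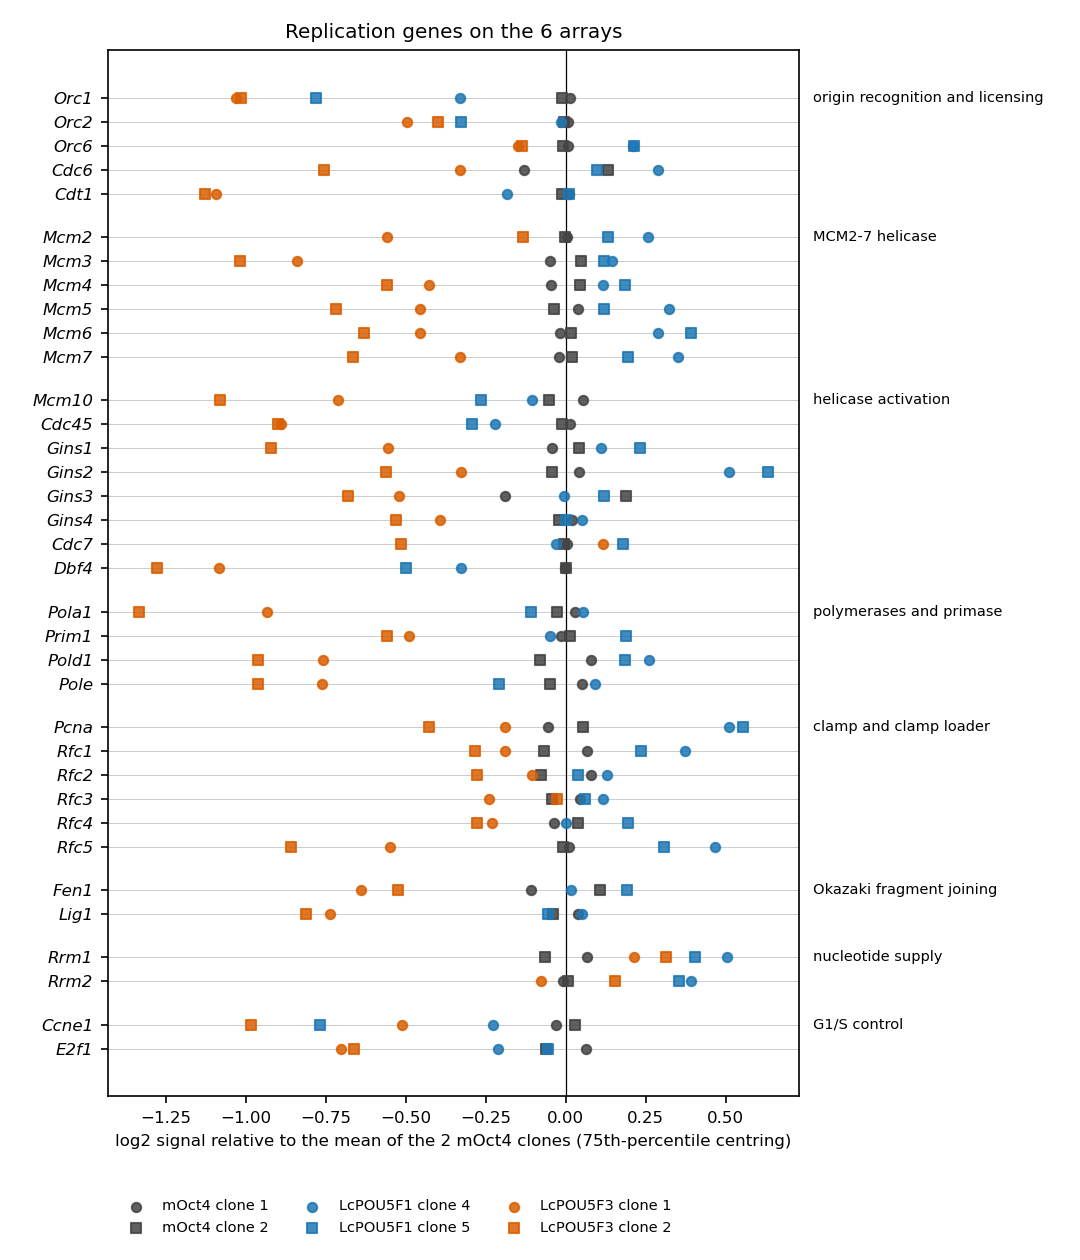
Log2 signal of 35 replication genes on each of the 6 arrays, relative to the mean of the 2 mOct4 clones, with genes in rows grouped by role and clones distinguished by colour (group) and marker (clone). The LcPOU5F3 points lie left of the mOct4 points for 31 genes. The exceptions are Rrm1, where they lie to the right, and Cdc7, Rfc3 and Rrm2, where the 2 groups overlap.

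Fitting only the 4 arrays compared called 9 of the 35 genes in LcPOU5F3 against mOct4, all of them among the 13, beside 15.1% of all genes tested called in either direction. Leaving out either LcPOU5F1 array gives the same fit, since the 1 array left in that group adds nothing to the spread. The calls on the 35 genes were lost without either of the mOct4 clones, which leaves 1 array in that group. The median difference was then -0.56 without mOct4 clone 1 and -0.49 without clone 2, beside -0.10 and -0.07 over all genes tested. Few of all genes tested were called in those fits as well, so the loss of calls was not particular to the replication genes. The slide of mOct4 clone 2 held no other array. The median difference moved less than the calls did, staying between -0.66 and -0.49 when any of the 6 arrays was left out. It was -0.66 without LcPOU5F3 clone 1 and -0.49 without LcPOU5F3 clone 2, beside -0.18 and -0.02 over all genes tested.

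The sequences around the gene starts were set beside these values, since many S-phase promoters are known to carry E2F-type elements. RefSeq windows of 250 bases before to 50 bases after the start (GRCm38.p6) were matched for 29 of the 36 genes. On both strands, the E2F-type motifs TTCCCGC and TTGGCGC were searched, which can overlap each other where they face in opposite directions and can share letters with the NF-Y motif CCAAT. At least 1 E2F-type match was found for 16 of the 29 genes (55.2%), beside 7.79% of 27025 genes in the whole table. The windows below belong to the genes called in LcPOU5F3 against mOct4 with at least 2 matches (Cdt1, Mcm3 and Pola1), to Dbf4, the gene with the lowest difference, and to Rrm2, a gene of nucleotide supply that was not called. They are written 5′ to 3′ on the strand of the gene, with the E2F-type matches in capitals. Cdt1 lies at chr8:122567765-122568064 on the plus strand, Mcm3 at chr1:20820263-20820562 on the minus strand, Pola1 at chrX:93632106-93632405 on the minus strand, Dbf4 at chr5:8422667-8422966 on the minus strand, and Rrm2 at chr12:24708004-24708303 on the plus strand.
Cdt1: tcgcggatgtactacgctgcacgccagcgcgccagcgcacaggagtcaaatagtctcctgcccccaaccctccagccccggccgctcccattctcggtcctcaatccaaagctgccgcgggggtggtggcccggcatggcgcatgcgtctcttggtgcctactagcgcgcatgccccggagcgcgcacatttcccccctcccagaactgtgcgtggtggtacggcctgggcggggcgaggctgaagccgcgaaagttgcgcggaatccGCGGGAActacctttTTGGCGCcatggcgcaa
Mcm3: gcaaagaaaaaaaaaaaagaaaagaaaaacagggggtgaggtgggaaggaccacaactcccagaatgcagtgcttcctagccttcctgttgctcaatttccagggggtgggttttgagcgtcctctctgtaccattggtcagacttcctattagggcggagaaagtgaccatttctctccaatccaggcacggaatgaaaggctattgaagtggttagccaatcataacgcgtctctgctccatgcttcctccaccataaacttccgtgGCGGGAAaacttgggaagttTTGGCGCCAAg
Pola1: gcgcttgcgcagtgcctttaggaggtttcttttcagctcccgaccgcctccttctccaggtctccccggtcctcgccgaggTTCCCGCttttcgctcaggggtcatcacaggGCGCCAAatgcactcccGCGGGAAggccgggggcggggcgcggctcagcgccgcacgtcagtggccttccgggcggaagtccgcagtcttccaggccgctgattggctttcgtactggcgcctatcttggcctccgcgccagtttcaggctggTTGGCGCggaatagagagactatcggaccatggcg
Dbf4: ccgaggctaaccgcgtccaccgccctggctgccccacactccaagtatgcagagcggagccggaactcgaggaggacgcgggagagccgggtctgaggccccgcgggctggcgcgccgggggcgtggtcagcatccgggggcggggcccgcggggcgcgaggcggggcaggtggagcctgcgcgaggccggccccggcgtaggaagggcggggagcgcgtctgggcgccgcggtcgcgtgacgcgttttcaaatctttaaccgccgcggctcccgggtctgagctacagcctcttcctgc
Rrm2: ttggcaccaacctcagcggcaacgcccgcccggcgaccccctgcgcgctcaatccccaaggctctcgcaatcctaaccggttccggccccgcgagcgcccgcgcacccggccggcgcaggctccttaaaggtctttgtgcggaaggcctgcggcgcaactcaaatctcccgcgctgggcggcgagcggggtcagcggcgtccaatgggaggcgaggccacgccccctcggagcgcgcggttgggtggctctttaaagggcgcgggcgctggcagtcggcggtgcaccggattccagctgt
Counted from 1 at the first base after the start, the Cdt1 matches began at bases 19 and 34, and the Mcm3 matches at bases 20, 40 and 43, the last pair sharing letters on opposite strands. Pola1 had matches that began at bases -169, -138 and -121, counted back from -1 just before the start, and at base 16. The windows of Dbf4 and Rrm2 held neither motif, although Dbf4 had the lowest difference of all 35 genes in LcPOU5F3 against mOct4. Among genes with a window, the median difference in that comparison was -0.54 for the 16 genes with a match, of which 5 were called, and -0.68 for the 13 genes without a match, of which 6 were called. A match describes letters in the window and does not show binding. A window without a match lacks only these exact letters, since other forms of E2F-type elements and sequence outside the windows were not searched. E2f1 is among the 6 called genes without a match. It had only 1 window, and whether that window covers its promoter was not checked.

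**Figure D2:**
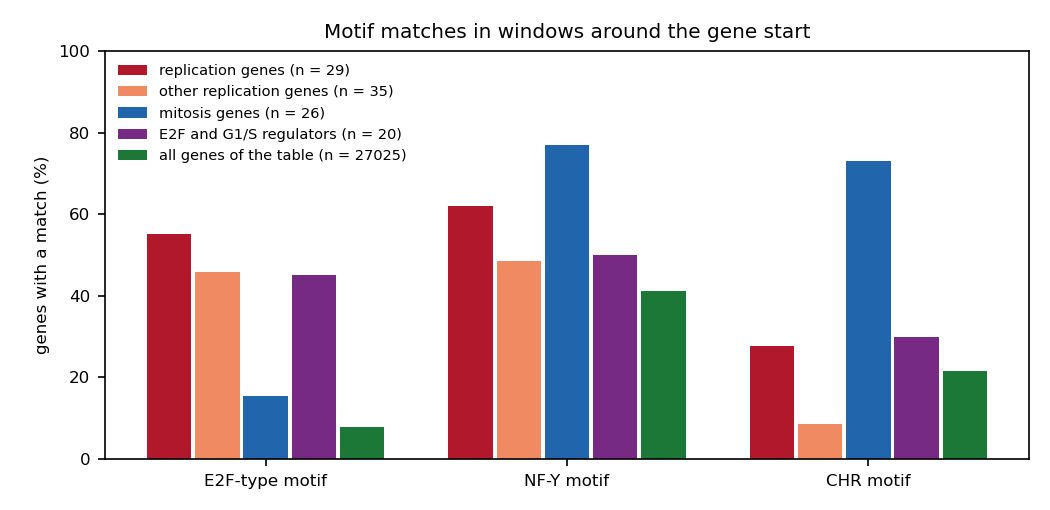
Share of genes (percent) whose window around the start holds a match to the E2F-type, NF-Y or CHR motif, for the replication genes, 3 further gene lists and all genes of the RefSeq table. E2F-type matches were found in 55.2% of the replication genes and 15.4% of the mitosis genes, and matches to the CHR motif (TTTGAA or TTCGAA) in 27.6% and 73.1%.

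CCAAT was present for 62.1% of the replication genes, 76.9% of the mitosis genes and 41.1% of all genes in the table. The CHR motif, known from genes transcribed in G2 and M phase and searched as TTTGAA and TTCGAA, was present for 27.6% of the replication genes, 73.1% of the mitosis genes and 21.7% of all genes.

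Origin recognition and licensing is represented by Orc1, Orc2 and Orc6, subunits of the complex that marks origins, and by Cdc6 and Cdt1, which help it to load the MCM helicase. All 5 genes were lower in both LcPOU5F3 clones than in both mOct4 clones, and Cdt1 and Orc1 were called. Cdt1, the licensing factor that is degraded once S phase begins, measured 6.23 and 6.21 in the mOct4 clones, 6.03 and 6.23 in the LcPOU5F1 clones, and 5.12 and 5.09 in the LcPOU5F3 clones. The LcPOU5F3 clones stood apart from the other 4 clones, which overlapped. Cdt1 fell 2.16-fold in LcPOU5F3 against mOct4, a log2 difference of -1.11 ± 0.15 (SE, n = 2 clones a group, limma with Benjamini-Hochberg adjusted p = 0.0115). It was 2.03-fold higher in LcPOU5F1 than in LcPOU5F3 (1.02 ± 0.15, limma adjusted p = 0.0154). Orc1, the largest subunit of the complex, measured 1.59 and 1.56 in the mOct4 clones, 1.25 and 0.80 in the LcPOU5F1 clones, and 0.55 and 0.56 in the LcPOU5F3 clones. The 3 groups did not overlap for Orc1, with the LcPOU5F1 clones between the others and farther apart from each other. The fall of Orc1 in LcPOU5F3 against mOct4 was 2.03-fold (-1.02 ± 0.19, limma adjusted p = 0.0234), while neither LcPOU5F1 against mOct4 (-0.56 ± 0.19, adjusted p = 0.285) nor LcPOU5F1 against LcPOU5F3 (0.47 ± 0.19, adjusted p = 0.141) was called. The differences of Orc2, Orc6 and Cdc6 in LcPOU5F3 against mOct4 lay between -0.54 and -0.14 and were not called. A second probe of Cdc6 gave -0.42 where the probe used gave -0.54.

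The 6 subunits of the MCM2-7 helicase, which unwinds DNA ahead of the fork, were all lower in both LcPOU5F3 clones than in the other 4 clones. Mcm3 was called in LcPOU5F3 against mOct4, and Mcm3, Mcm4, Mcm5, Mcm6 and Mcm7 were called higher in LcPOU5F1 against LcPOU5F3. Mcm3 measured 5.58 and 5.67 in the mOct4 clones, 5.77 and 5.75 in the LcPOU5F1 clones, and 4.78 and 4.61 in the LcPOU5F3 clones. It fell 1.90-fold in LcPOU5F3 against mOct4 (-0.93 ± 0.15, limma adjusted p = 0.0163) and was 2.09-fold higher in LcPOU5F1 than in LcPOU5F3 (1.06 ± 0.15, adjusted p = 0.0143). Both LcPOU5F3 clones lay below the other 4, and both LcPOU5F1 clones above the mOct4 clones.

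Mcm6 measured 6.84 and 6.87 in the mOct4 clones, 7.14 and 7.25 in the LcPOU5F1 clones, and 6.40 and 6.22 in the LcPOU5F3 clones. Its difference was -0.54 ± 0.15 in LcPOU5F3 against mOct4 (limma adjusted p = 0.0534, not called) and 0.88 ± 0.15 in LcPOU5F1 against LcPOU5F3 (adjusted p = 0.0206). For Mcm6 the LcPOU5F1 clones were the highest and the LcPOU5F3 clones the lowest, with no overlap between groups. Mcm5 measured 5.70 and 5.63 in the mOct4 clones, 5.99 and 5.78 in the LcPOU5F1 clones, and 5.21 and 4.95 in the LcPOU5F3 clones. Mcm7 measured 6.34 and 6.37 in the mOct4 clones, 6.71 and 6.55 in the LcPOU5F1 clones, and 6.03 and 5.69 in the LcPOU5F3 clones. Mcm4 measured 5.85 and 5.94 in the mOct4 clones, 6.01 and 6.08 in the LcPOU5F1 clones, and 5.47 and 5.34 in the LcPOU5F3 clones. These 3 subunits had the same order of groups as Mcm6, without overlap. In LcPOU5F3 against mOct4 none of the 3 was called by limma, with differences of -0.59 ± 0.17 for Mcm5 (adjusted p = 0.0625), -0.50 ± 0.18 for Mcm7 (adjusted p = 0.0978) and -0.49 ± 0.14 for Mcm4 (adjusted p = 0.0624). All 3 were called in LcPOU5F1 against LcPOU5F3, at 0.81 ± 0.17 (limma adjusted p = 0.0334), 0.77 ± 0.18 (adjusted p = 0.0395) and 0.64 ± 0.14 (adjusted p = 0.0372). Mcm2 was not called in any comparison. All 6 subunits lay above both mOct4 clones in both LcPOU5F1 clones, by 0.13 to 0.34, but none was called, and centring each array on its median put these differences between -0.24 and -0.03.

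Of the 8 helicase activation genes, 4 were called lower in LcPOU5F3 against mOct4, and 7 were lower in both LcPOU5F3 clones than in both mOct4 clones. Dbf4, the regulatory subunit of the CDC7 kinase that phosphorylates the MCM ring, measured 2.38 and 2.39 in the mOct4 clones, 2.06 and 1.89 in the LcPOU5F1 clones, and 1.30 and 1.11 in the LcPOU5F3 clones. Dbf4 had the lowest difference of the 35 genes in LcPOU5F3 against mOct4, -1.18 ± 0.15 or 2.27-fold lower (limma adjusted p = 0.0115). The LcPOU5F1 clones lay between the other groups, at -0.41 ± 0.15 against mOct4 (limma adjusted p = 0.308, not called) and 0.77 ± 0.15 against LcPOU5F3 (adjusted p = 0.0305). Cdc7, the kinase subunit itself, was not called in any comparison, and its LcPOU5F3 clones lay on either side of the mOct4 clones. A second probe of Cdc7, well above background on 4 arrays, gave -0.42 in LcPOU5F3 against mOct4 where the probe used gave -0.20. On that second probe both LcPOU5F3 clones lay below both mOct4 clones.

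Cdc45, a subunit of the active CMG helicase, measured 1.17 and 1.15 in the mOct4 clones, 0.94 and 0.87 in the LcPOU5F1 clones, and 0.27 and 0.26 in the LcPOU5F3 clones. The clones of each group were close to each other and no groups overlapped. Cdc45 fell 1.86-fold in LcPOU5F3 against mOct4 (-0.89 ± 0.13, limma adjusted p = 0.0148) and was 1.55-fold higher in LcPOU5F1 than in LcPOU5F3 (0.64 ± 0.13, adjusted p = 0.0336). Mcm10, a factor needed to start the assembled helicase, measured 4.70 and 4.60 in the mOct4 clones, 4.54 and 4.39 in the LcPOU5F1 clones, and 3.94 and 3.57 in the LcPOU5F3 clones. It fell 1.86-fold in LcPOU5F3 against mOct4 (-0.90 ± 0.18, limma adjusted p = 0.0284) and was just short of the threshold in LcPOU5F1 against LcPOU5F3 (0.71 ± 0.18, adjusted p = 0.0527). The LcPOU5F3 clones of Mcm10 were the lowest and differed from each other more than the clones of the other groups did.

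The GINS complex joins CDC45 and the MCM ring in the active helicase. Gins1 measured 3.21 and 3.30 in the mOct4 clones, 3.37 and 3.49 in the LcPOU5F1 clones, and 2.70 and 2.33 in the LcPOU5F3 clones. It fell 1.67-fold in LcPOU5F3 against mOct4 (-0.74 ± 0.18, limma adjusted p = 0.0420) and was 1.88-fold higher in LcPOU5F1 than in LcPOU5F3 (adjusted p = 0.0295). Gins2 measured 2.44 and 2.35 in the mOct4 clones, 2.91 and 3.02 in the LcPOU5F1 clones, and 2.07 and 1.83 in the LcPOU5F3 clones. The LcPOU5F1 clones had the highest values for Gins2, and its difference in LcPOU5F1 against mOct4, 0.57 ± 0.16, was the highest of the 35 genes but was not called (limma adjusted p = 0.234). Against LcPOU5F3, Gins2 was 2.02-fold higher in LcPOU5F1 (1.02 ± 0.16, limma adjusted p = 0.0180). Gins3 and Gins4 differed by -0.60 and -0.46 in LcPOU5F3 against mOct4 and were not called.

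Among the 4 polymerase and primase genes, Pola1, Pold1 and Pole were called in LcPOU5F3 against mOct4 and again in LcPOU5F1 against LcPOU5F3, comparisons that share the LcPOU5F3 arrays. The median difference of the 4 genes in LcPOU5F3 against mOct4 was -0.86. Pola1, the catalytic subunit of the polymerase that starts each new strand, measured 2.87 and 2.81 in the mOct4 clones, 2.89 and 2.73 in the LcPOU5F1 clones, and 1.90 and 1.51 in the LcPOU5F3 clones. It fell 2.19-fold in LcPOU5F3 against mOct4 (-1.13 ± 0.19, limma adjusted p = 0.0179) and was 2.15-fold higher in LcPOU5F1 than in LcPOU5F3 (1.11 ± 0.19, adjusted p = 0.0216). The mOct4 and LcPOU5F1 clones of Pola1 overlapped, while both LcPOU5F3 clones were lower. Pold1, the catalytic subunit of the lagging-strand polymerase delta, measured 4.83 and 4.67 in the mOct4 clones, 5.01 and 4.94 in the LcPOU5F1 clones, and 3.99 and 3.79 in the LcPOU5F3 clones. Pole, the catalytic subunit of the leading-strand polymerase epsilon, measured 4.37 and 4.27 in the mOct4 clones, 4.42 and 4.11 in the LcPOU5F1 clones, and 3.56 and 3.36 in the LcPOU5F3 clones. Both genes were lower in the LcPOU5F3 clones than in the other 4. Pold1 fell 1.82-fold (-0.86 ± 0.16, limma adjusted p = 0.0214) and Pole fell 1.82-fold (-0.86 ± 0.18, adjusted p = 0.0281) in LcPOU5F3 against mOct4. In LcPOU5F1 against LcPOU5F3, Pold1 was 2.12-fold higher (limma adjusted p = 0.0158) and Pole 1.75-fold higher (adjusted p = 0.0366). Prim1, the catalytic primase subunit, differed by -0.52 in LcPOU5F3 against mOct4 and was not called.

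The sliding clamp PCNA and its loader, the RFC complex, had a median difference of -0.24 over 6 genes in LcPOU5F3 against mOct4, and Rfc5 was called. Rfc5, a small loader subunit, measured 5.65 and 5.63 in the mOct4 clones, 6.10 and 5.94 in the LcPOU5F1 clones, and 5.09 and 4.78 in the LcPOU5F3 clones. It fell 1.63-fold in LcPOU5F3 against mOct4 (-0.71 ± 0.17, limma adjusted p = 0.0413) and was 2.13-fold higher in LcPOU5F1 than in LcPOU5F3 (1.09 ± 0.17, adjusted p = 0.0185). The other 4 loader subunits, Rfc1 to Rfc4, differed by -0.25 to -0.13 in LcPOU5F3 against mOct4 and were not called in any comparison. A second probe of Rfc4 gave -0.06 where the probe used gave -0.25. Pcna measured 6.29 and 6.40 in the mOct4 clones, 6.86 and 6.90 in the LcPOU5F1 clones, and 6.16 and 5.92 in the LcPOU5F3 clones. The LcPOU5F1 clones were the highest for Pcna and the LcPOU5F3 clones the lowest. Pcna was not called in LcPOU5F3 against mOct4 (-0.31 ± 0.16, limma adjusted p = 0.204) or in LcPOU5F1 against mOct4 (0.53 ± 0.16, adjusted p = 0.244), and it was 1.79-fold higher in LcPOU5F1 than in LcPOU5F3 (0.84 ± 0.16, adjusted p = 0.0256).

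Fen1 and Lig1 process and seal Okazaki fragments, the short pieces of the lagging strand. Lig1, the ligase, measured 5.79 and 5.72 in the mOct4 clones, 5.81 and 5.70 in the LcPOU5F1 clones, and 5.02 and 4.94 in the LcPOU5F3 clones. It fell 1.71-fold in LcPOU5F3 against mOct4 (-0.77 ± 0.14, limma adjusted p = 0.0213), with overlapping mOct4 and LcPOU5F1 clones. Lig1 was 1.71-fold higher in LcPOU5F1 than in LcPOU5F3 (limma adjusted p = 0.0250). Fen1, the flap nuclease, measured 4.85 and 5.07 in the mOct4 clones, 4.97 and 5.15 in the LcPOU5F1 clones, and 4.32 and 4.43 in the LcPOU5F3 clones. Its LcPOU5F3 clones were below all other clones, but the difference against mOct4 was not called (-0.58 ± 0.16, limma adjusted p = 0.0568), while LcPOU5F1 was 1.61-fold higher than LcPOU5F3 (0.69 ± 0.16, adjusted p = 0.0427).

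Rrm1 and Rrm2 encode the large and small subunits of ribonucleotide reductase, which makes deoxyribonucleotides, and the mean of each in LcPOU5F3 was not below that in mOct4. Rrm1 measured 3.74 and 3.61 in the mOct4 clones, 4.18 and 4.08 in the LcPOU5F1 clones, and 3.89 and 3.99 in the LcPOU5F3 clones. Rrm2 measured 6.00 and 6.02 in the mOct4 clones, 6.40 and 6.36 in the LcPOU5F1 clones, and 5.93 and 6.16 in the LcPOU5F3 clones. Both LcPOU5F3 clones were above both mOct4 clones for Rrm1, and the groups overlapped for Rrm2. Neither gene was called in LcPOU5F3 against mOct4, where the differences were 0.26 ± 0.15 for Rrm1 (95% interval from -0.11 to 0.63) and 0.04 ± 0.15 for Rrm2 (95% interval from -0.34 to 0.42). The intervals exclude a fall of the size seen for Cdt1, Dbf4 or Pola1, although whether either gene differed from those was not tested. Neither was called in the other comparisons.

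Of the G1/S control genes, E2f1, a transcriptional activator of S-phase genes, measured 2.76 and 2.64 in the mOct4 clones, 2.49 and 2.65 in the LcPOU5F1 clones, and 2.00 and 2.04 in the LcPOU5F3 clones. It fell 1.61-fold in LcPOU5F3 against mOct4 (-0.68 ± 0.15, limma adjusted p = 0.0315) and was not called in LcPOU5F1 against LcPOU5F3 (0.55 ± 0.15, adjusted p = 0.0556). The LcPOU5F3 clones of E2f1 were below the other 4, which overlapped. Ccne1, which encodes cyclin E1, the partner of CDK2 at the G1/S transition, measured 5.56 and 5.61 in the mOct4 clones, 5.36 and 4.82 in the LcPOU5F1 clones, and 5.07 and 4.60 in the LcPOU5F3 clones. The clones of each coelacanth group were far apart, and the LcPOU5F1 and LcPOU5F3 clones overlapped. Ccne1 was not called in LcPOU5F3 against mOct4 (-0.75 ± 0.26, limma adjusted p = 0.0943), and a second probe gave -1.22 in the same comparison.

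**Figure D3:**
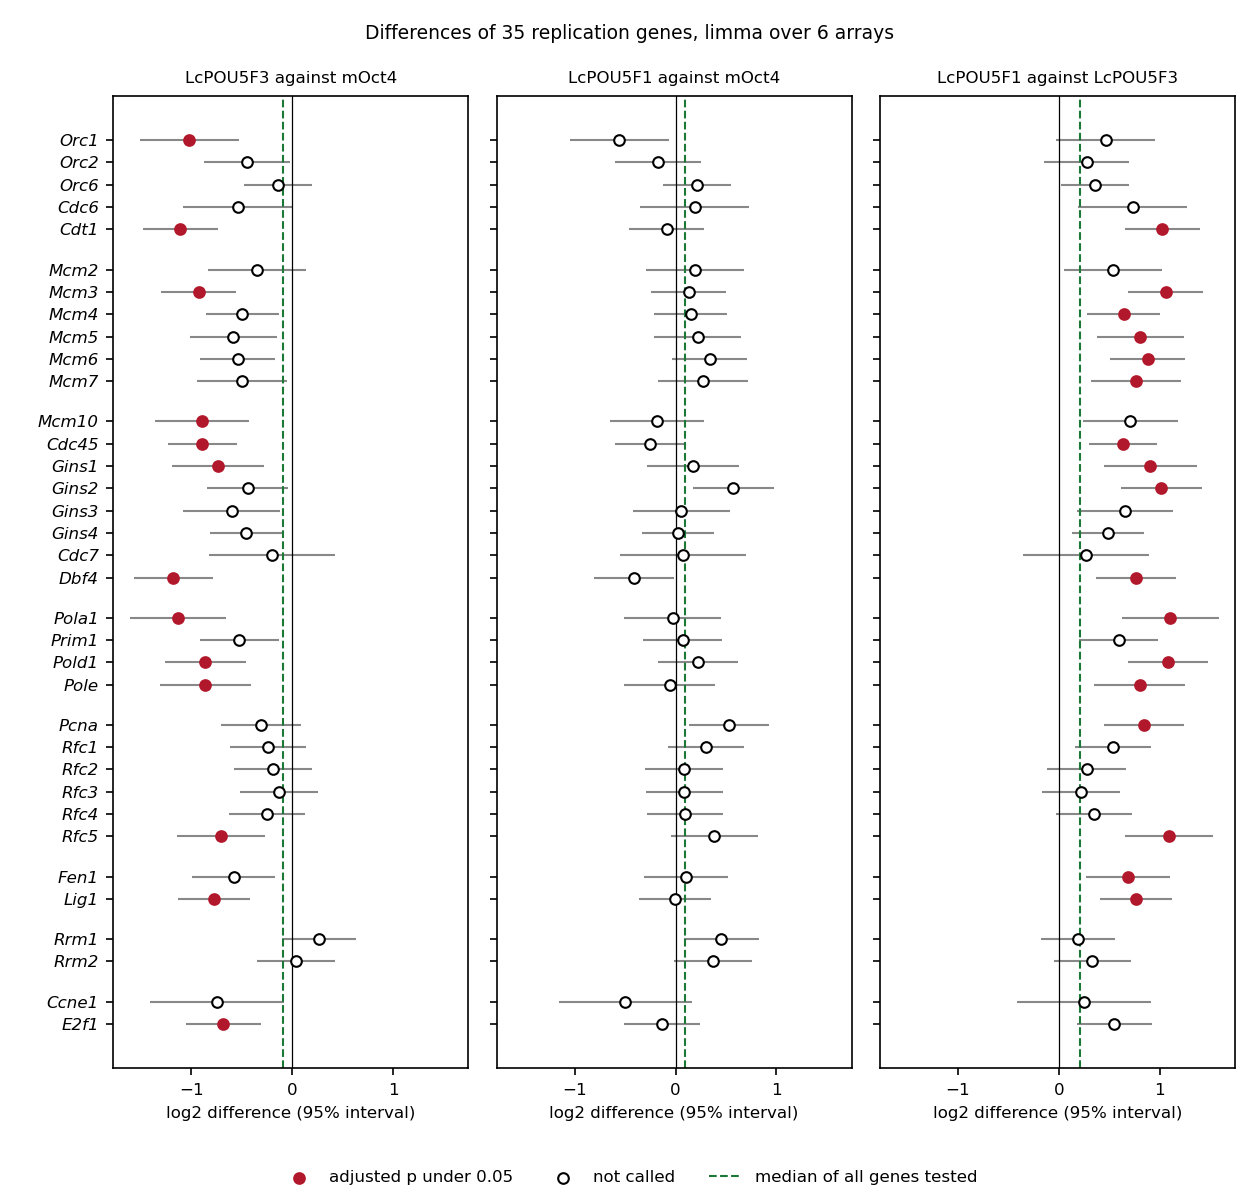
Log2 difference of each of 35 replication genes with its 95% interval from limma, in 3 panels for the 3 comparisons, with filled points for adjusted p under 0.05 and a dashed line at the median of all genes tested. Filled points number 13 in LcPOU5F3 against mOct4, 0 in LcPOU5F1 against mOct4 and 17 in LcPOU5F1 against LcPOU5F3.

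In LcPOU5F1 against mOct4, 0 of the 35 genes were called by limma, and 5 had an unadjusted p under 0.05. Over all genes tested, 0.0343% were called in either direction, 0.0137% higher and 0.0206% lower, and 15.6% had an unadjusted p under 0.05. The smallest adjusted p among the 35 genes was 0.234, and the 95% intervals of 30 genes included 0. The differences ran from -0.56 for Orc1 to 0.57 for Gins2, with 24 above 0 and 11 below, and none reached 1.5-fold. Their median, 0.10, was the same to 2 decimals as the 0.10 over all genes tested. Both LcPOU5F1 clones lay above both mOct4 clones for 16 genes (45.7%, against 38.8% of all genes) and below for 6 (17.1%, against 21.9%). The intervals reached from -1.16 to 0.97 at their widest, so for some genes a change of the size called in the other comparisons lies within the interval.

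In LcPOU5F1 against LcPOU5F3, 17 of the 35 genes were called higher and 0 lower, whereas 10.6% of all genes tested were called higher, 9.99% lower and 20.6% in either direction. The called genes were Cdt1, Mcm3, Mcm4, Mcm5, Mcm6, Mcm7, Cdc45, Gins1, Gins2, Dbf4, Pola1, Pold1, Pole, Pcna, Rfc5, Fen1 and Lig1, between 1.55-fold and 2.15-fold higher. This comparison shares the LcPOU5F3 arrays with LcPOU5F3 against mOct4, so the 2 sets of calls are not independent. Both LcPOU5F1 clones lay above both LcPOU5F3 clones for 33 genes (94.3%, against 41.1% of all genes) and below for 0, against 24% of all genes. An unadjusted p under 0.05 was reached by 26 of the 35 genes and by 39.5% of all genes. The median difference was 0.66, beside 0.21 over all genes. When only the 4 arrays compared were fitted, limma called 0 of the 35 genes, with 24 at an unadjusted p under 0.05. Of all 14595 genes tested, 3.4% were called in that fit and 4334 had an unadjusted p under 0.05. Leaving out either mOct4 clone gives the same fit, since the 1 array left there adds nothing to the spread. The median of the 35 genes was 0.65 without LcPOU5F1 clone 4 and 0.67 without clone 5, beside 0.19 and 0.21 over all genes. Without LcPOU5F3 clone 1 or 2 it was 0.71 or 0.58, beside 0.26 or 0.10.

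The size of these shifts depended on how the arrays were centred, and so did the direction in LcPOU5F1 against mOct4. For the alternatives that subtract another constant from each array, the gap between the 35 genes and all genes tested cannot move, and it was -0.45 in LcPOU5F3 against mOct4, 0.45 in LcPOU5F1 against LcPOU5F3 and -0.0011 in LcPOU5F1 against mOct4. Under quantile normalization the gaps were -0.47, 0.45 and -0.02, and under normexp background correction they were -0.46, 0.37 and -0.03, in the same order.

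In LcPOU5F3 against mOct4 the median difference of the 35 genes lay between -0.62 and -0.51 under the 6 ways of scaling, and 33 or 34 of the 35 genes were below 0 in each. Calls were less stable. When each array was centred on its median, 0 of the 35 genes were called by limma, with a smallest adjusted p of 0.064, although 2452 of all genes were still called. The other ways of scaling called 12 to 18 of the 35 genes lower, beside 23% to 26.6% of all genes called in either direction.

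In LcPOU5F1 against mOct4, centring on the array median moved the median of all genes from 0.10 to -0.27 and that of the 35 genes to -0.27, with 5 genes above 0 and 30 below, so 19 genes changed sign. The other alternatives put the median of the 35 genes between -0.02 and 0.09, and none called any of the 35. All genes called in this comparison were split into 2 higher and 3 lower under the 75th percentile, 47 and 702 under the array median, 7 and 102 under quantile normalization, 2 and 11 under normexp, and 2 and 5 when centred on the 75th percentile of the probes measured on all arrays or on the median of the genes tested.

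In LcPOU5F1 against LcPOU5F3, centring on the array median moved the median of all genes from 0.21 to -0.20 and that of the 35 genes from 0.66 to 0.25. It left 26 genes above 0 and 9 below, namely Orc2, Orc6, Cdc7, Rfc2, Rfc3, Rfc4, Rrm1, Rrm2 and Ccne1, and 0 genes were called by limma, with 0 at an unadjusted p under 0.05. The other ways of scaling gave medians from 0.50 to 0.72 and called 11 to 21 of the 35 genes, beside 17.9% to 22.7% of all genes. The calls over all genes split into 1545 higher and 1458 lower under the 75th percentile, 501 and 1852 under the array median, and 998 and 1616 under the 75th percentile of probes measured on all arrays.

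**Figure D4:**
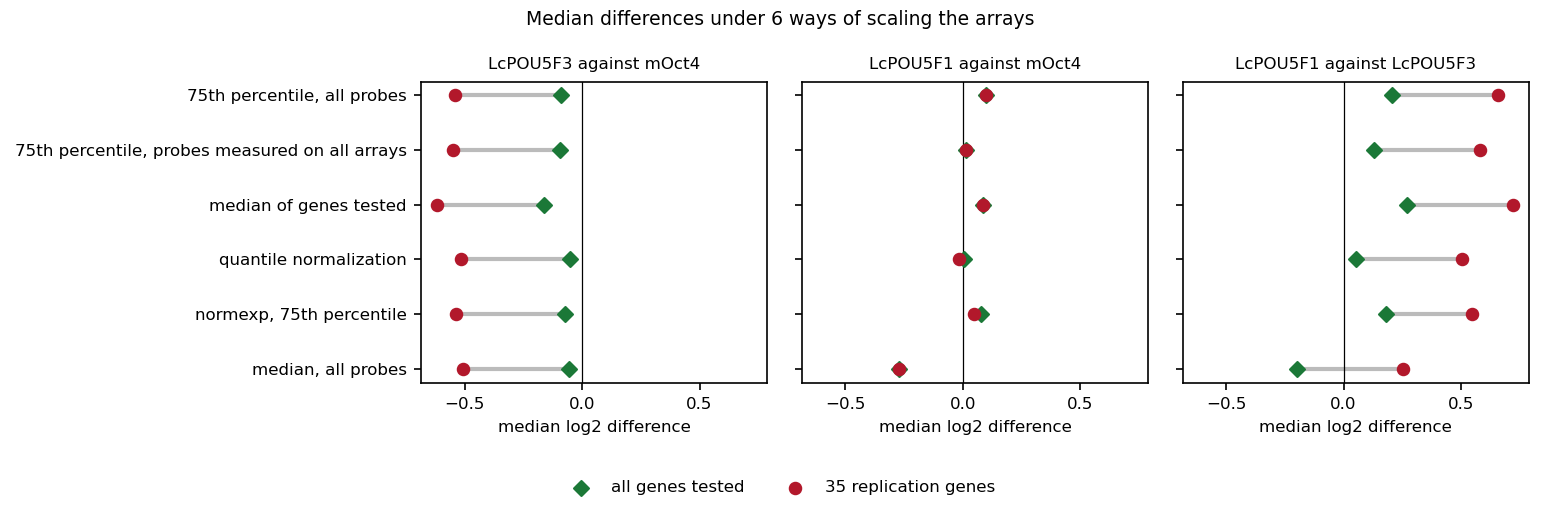
Median log2 difference of the 35 replication genes (circles) and of all genes tested (diamonds) under 6 ways of scaling the arrays, in 3 panels for the 3 comparisons, with a line joining the pair. The pair stays about 0.45 apart in both comparisons with LcPOU5F3 for most ways of scaling, while in LcPOU5F1 against mOct4 both move together, from 0.10 to -0.27.

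The median SD between the clones of a group was, over the 35 genes, 0.05 in mOct4, 0.10 in LcPOU5F1 and 0.12 in LcPOU5F3, beside 0.11, 0.15 and 0.23 over all genes tested. In the LcPOU5F3 group, clone 2 was lower than clone 1 for 26 of the 35 genes. Relative to the mean of the mOct4 clones, the median of the 35 genes was -0.49 in LcPOU5F3 clone 1 and -0.66 in clone 2, beside -0.02 and -0.18 for all genes tested. In each of these clones 33 of the 35 genes were below the mOct4 mean. In the LcPOU5F1 clones the median was 0.11 and 0.12, with 11 and 10 genes below that mean.

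A further list held 42 replication and S-phase genes, among them the remaining ORC and polymerase subunits, the single-strand binding protein RPA, enzymes of nucleotide synthesis and histone chaperones. Of the 41 tested, 13 were called lower and 1 higher in LcPOU5F3 against mOct4, with a median of -0.37, beside 11.7% and 11.8% of all genes tested and a median of -0.09. A total of 17 were called higher and 0 lower in LcPOU5F1 against LcPOU5F3, with a median of 0.55, beside 10.6% and 9.99% of all genes and a median of 0.21. With each array centred on its median, limma called 1 of the 41 lower in LcPOU5F3 against mOct4 (Ticrr, with 3 at an unadjusted p under 0.05) and 0 in LcPOU5F1 against LcPOU5F3 (1 at an unadjusted p under 0.05). The same centring called 16.8% and 16.1% of all genes in these comparisons. Without either mOct4 clone, the calls in both comparisons were lost, as were most calls over all genes tested. Nasp, a chaperone of histone H3 and linker histones, measured 6.18 and 6.18 in the mOct4 clones, 6.08 and 6.08 in the LcPOU5F1 clones, and 5.21 and 5.00 in the LcPOU5F3 clones. It fell 2.11-fold in LcPOU5F3 against mOct4 (-1.08 ± 0.15, limma adjusted p = 0.0126), and the LcPOU5F3 clones lay below the rest. A second probe of Nasp gave -0.78. Ticrr, which helps to recruit CDC45, fell 3.26-fold (-1.70 ± 0.30, limma adjusted p = 0.0200). Rnaseh2a, the catalytic subunit of RNase H2, fell 2.27-fold (-1.18 ± 0.19, limma adjusted p = 0.0174). Its other 3 probes gave -1.15, -0.97 and -0.34. The gene called higher was Pold4, a small subunit of polymerase delta (0.75 ± 0.18, limma adjusted p = 0.0395). In LcPOU5F1 against LcPOU5F3, Pold3 was 1.89-fold and Uhrf1 1.82-fold higher (limma adjusted p = 0.0195 and 0.0227). In LcPOU5F1 against mOct4, 0 of the 41 were called by limma, with 5 at an unadjusted p under 0.05.

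Genes of mitosis were called in the same directions. Of 29 tested, 9 were called lower and 0 higher in LcPOU5F3 against mOct4, with a median of -0.36, again beside 11.7% and 11.8% of all genes. For LcPOU5F1 against LcPOU5F3, 14 were called higher and 0 lower, with a median of 0.66, beside 10.6% and 9.99%. Centring on the array median left 0 of the 29 called by limma in either comparison, with 4 and 0 at an unadjusted p under 0.05. Over all genes, that centring called 16.8% and 16.1%. The calls in both comparisons were lost without either mOct4 clone as well, as were most calls over all genes tested. Top2a, the topoisomerase that untangles replicated chromosomes, measured 4.28 and 4.14 in the mOct4 clones, 4.45 and 4.37 in the LcPOU5F1 clones, and 3.68 and 3.46 in the LcPOU5F3 clones. It fell 1.56-fold in LcPOU5F3 against mOct4 (-0.64 ± 0.16, limma adjusted p = 0.0420). Ndc80, a kinetochore protein, fell 2.06-fold, Espl1, which encodes separase, 1.99-fold, and Ttk, a spindle checkpoint kinase, 1.88-fold (limma adjusted p = 0.0172, 0.0169 and 0.0165). Ccna2, which encodes the S and G2 cyclin A2, did not pass in any comparison, with differences of 0.00 ± 0.14 in LcPOU5F3 against mOct4 and 0.40 ± 0.14 in LcPOU5F1 against mOct4. The latter comparison called 0 of the 29 genes by limma, with 2 at an unadjusted p under 0.05.

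The list of E2F and G1/S regulators held calls in both directions. Of 25 tested, 6 were called higher and 3 lower in LcPOU5F3 against mOct4, with a median of 0.10, beside 11.8% higher and 11.7% lower over all genes tested. Against LcPOU5F3, 3 were called higher and 5 lower in LcPOU5F1, with a median of -0.02, beside 10.6% and 9.99%. Centring on the array median called 7 higher and 1 lower in LcPOU5F3 against mOct4, beside 1313 higher and 1139 lower of all 14595 genes. Without either mOct4 clone the calls in that comparison were lost, as were most calls over all genes tested. Of the 6 genes called higher in LcPOU5F3 against mOct4, 4 encode inhibitors of cyclin-dependent kinases, namely Cdkn1a, Cdkn1c, Cdkn2a and Cdkn2b. A further inhibitor gene on the list, Cdkn1b, which encodes p27, was not called (-0.16 ± 0.14, limma adjusted p = 0.450). Another, Cdkn2c, was well above background on 2 arrays only and was not tested. Cdkn1c, which encodes p57, Cdkn1b and Cdkn2c were picked out after their values were seen. Cdkn1a, which encodes the CDK inhibitor p21, measured 1.21 and 0.48 in the mOct4 clones, 1.06 and 1.78 in the LcPOU5F1 clones, and 3.13 and 3.82 in the LcPOU5F3 clones. Both LcPOU5F3 clones were above the other 4, and Cdkn1a rose 6.22-fold in LcPOU5F3 against mOct4 (2.64 ± 0.41, limma adjusted p = 0.0156). Cdkn1c rose 3.76-fold (1.91 ± 0.38, limma adjusted p = 0.0270). Cdkn2b, which encodes the CDK4/6 inhibitor p15, measured -2.81 and -2.99 in the mOct4 clones, -0.997 and -1.19 in the LcPOU5F1 clones, and 0.45 and 1.33 in the LcPOU5F3 clones. It rose 13.8-fold in LcPOU5F3 against mOct4 (3.79 ± 0.31, limma adjusted p = 0.00586), with the LcPOU5F1 clones between the other groups. Cdkn2a, which encodes p16 and p19ARF, measured 2.06 and 1.23 in the mOct4 clones, 3.81 and 3.85 in the LcPOU5F1 clones, and 4.05 and 4.33 in the LcPOU5F3 clones. The clones of both coelacanth groups were above the mOct4 clones for Cdkn2a. It rose 5.83-fold in LcPOU5F3 against mOct4 (limma adjusted p = 0.00978), while its difference in LcPOU5F1 against mOct4, 2.18 ± 0.30, was not called (adjusted p = 0.116).

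Rb1, which encodes the retinoblastoma protein, a repressor partner of E2F, measured -0.27 and -0.24 in the mOct4 clones, -0.50 and -0.20 in the LcPOU5F1 clones, and 0.90 and 1.62 in the LcPOU5F3 clones. It was 3.05-fold lower in LcPOU5F1 than in LcPOU5F3 (-1.61 ± 0.28, limma adjusted p = 0.0223). E2f2, an activator like E2f1, measured 3.21 and 2.98 in the mOct4 clones, 3.92 and 3.96 in the LcPOU5F1 clones, and 2.14 and 1.53 in the LcPOU5F3 clones. The order of groups was opposite for these genes, with the LcPOU5F3 clones the highest for Rb1 and the lowest for E2f2. E2f2 was 4.30-fold higher in LcPOU5F1 than in LcPOU5F3 (2.10 ± 0.24, limma adjusted p = 0.0100). E2f7, an atypical repressor of E2F targets, was called higher in LcPOU5F3 against mOct4 (1.18 ± 0.14, limma adjusted p = 0.0102), but a second probe gave 0.19. E2f3 differed by 0.81 ± 0.17 in LcPOU5F1 against mOct4 and was not called (limma adjusted p = 0.164), nor was any other of the 25, with 7 at an unadjusted p under 0.05.

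**Figure D5:**
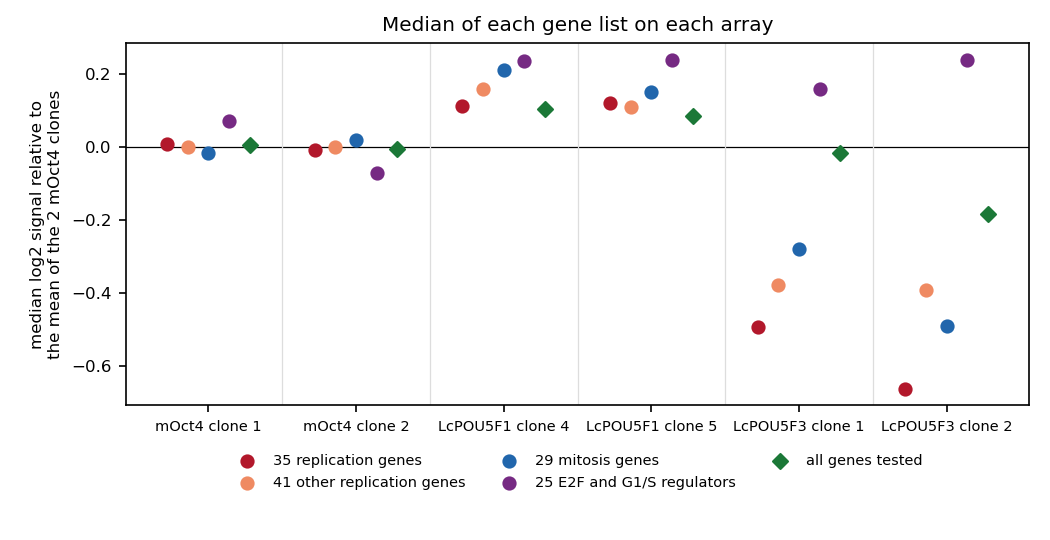
Median log2 signal of 4 gene lists and of all genes tested on each of the 6 arrays, relative to the mean of the 2 mOct4 clones. In LcPOU5F3 clones 1 and 2 the 35 replication genes lie lowest, at -0.49 and -0.66, the other replication genes and the mitosis genes lie between -0.49 and -0.28, and the E2F and G1/S regulators lie above 0.

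Cell type markers differed between the LcPOU5F3 clones and the others as well. In LcPOU5F3 against mOct4, 7 of 10 embryonic stem cell markers were called lower and 0 higher, beside 11.7% and 11.8% of all genes tested. Pou5f1 was tested only because it passed the filter in the mOct4 group. Of 9 trophectoderm markers tested, 6 were called higher and 1 lower, the lower one being Eomes (-2.02 ± 0.39, limma adjusted p = 0.0239), while Hand1 and Tfap2c differed by -0.02 and 0.05 and were not called. Of 4 primitive endoderm markers tested, 1 was called higher, Dab2, at least 20.5-fold (limma adjusted p = 0.00709), which was not well above background on either mOct4 array, so that the bound is taken against the higher of its own signal and the dimmest measured signal there. Dab2 and Krt7, a trophectoderm marker called higher, passed the filter only through the LcPOU5F3 group, where they were high. The filter therefore favoured a call in that direction for both genes. Of 5 fibroblast markers tested, 1 was called higher and 0 lower. The shares called in the primitive endoderm and fibroblast lists, 25% and 20%, were near the 23.5% of all genes tested that were called in either direction.

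Summed levels of the same lists are linear, in units of each array's 75th percentile, and can rest on 1 or 2 bright probes. The sum of the 10 embryonic stem cell markers was 756 to 838 in mOct4, 759 to 783 in LcPOU5F1 and 286 to 418 in LcPOU5F3, and 9 or 10 of the 10 were well above background on every array (Pou5f1 was not on any array of the coelacanth groups). That of 10 trophectoderm markers was 35.8 to 36.8 in mOct4, 24.8 to 33.3 in LcPOU5F1 and 513 to 541 in LcPOU5F3, with Krt18 and Krt8 making up 90.3% and 90.9% of the sum in the LcPOU5F3 clones and Elf5 not well above background on any array. Primitive endoderm markers (8 genes, 2 to 6 well above background) summed to 23.1 to 23.9, 32.7 to 47.2 and 13.5 to 17.8 in the same order of groups. Lama1 alone made up 76.3% to 98.01% of that sum, and Lama1 differed by -0.84 in LcPOU5F3 against mOct4 (not called). The other 3 markers tested lay above 0, and the median of the 4 was 0.43, opposite in sign to the change of the sum. Pdgfra was not well above background on any array. Fibroblast markers (8 genes, 4 to 6 well above background) summed to 23.8 to 28.4, 15.0 to 34.8 and 15.6 to 38.4, with Vim making up 69.7% to 96.6% and with Postn and Prrx1 not well above background on any array. The part of cell composition in the differences of the replication genes was not tested.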

How the data were processed

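RNA from 6 clones was hybridised to one-colour Agilent arrays. Per the file headers, the authors extracted spot intensity with Agilent Feature Extraction 11.0.1.1 (protocol GE1_1100_Jul11), and the deposited processed intensity is linear, background-subtracted and not scaled between arrays. The authors' deposited series matrix holds the same intensity, rounded. The design of the array names the build mm9.

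Control and outlier-flagged spots were dropped, and log2 values of the processed signals were centred here on the 75th percentile of each array. Accessions were matched to a RefSeq table (GRCm38.p6, names only), which named 27656 of 55681 probes and left 50.3% unnamed. Probes had to be flagged well above background on the 2 arrays of some group, and the kept probe with the highest mean was used for a gene. Means of the 3 groups were estimated by limma's lmFit and eBayes (limma 3.58.1, R 4.3.3) over the 6 arrays (3 residual degrees of freedom, 5.16 after moderation), with Benjamini-Hochberg adjustment. The limma fit was also run on simulated data with known changes and independent noise. Centring, filtering and the naming of probes were not part of that run.

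The members, the further lists and the tests were chosen with earlier results of these data known. Members that were called, or had the smallest p of their role group in a comparison, are given with every array's value, and up to 3 genes per further list and comparison are named, with Cdkn1a and Top2a. Alternatives were other centrings, quantile normalization, normexp (offset 50, on the median intensity), other filters, all kept probes of a gene, an intensity trend, group weights, only the 4 arrays compared, an adjusted p under 0.1, the series matrix, the omission of each array and a block on the clone number. Slide 2 held only mOct4 clone 2, so a slide block equals leaving out that clone.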

Additional observations from a re-analysis of the deposited data

How the results depend on the processing

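In LcPOU5F3 against mOct4, 3436 genes and 13 replication genes were called under the settings used above. Without a filter on dim probes these were 1544 and 5, and at an adjusted p under 0.1 they were 5325 and 23. An intensity trend called 4531 genes and 22 replication genes, centring on the array median 2452 and 0, and the 4 arrays alone 2202 and 9. The added centring on the median of the genes tested, chosen after the data were seen, gave a median of -0.62. Leaving out each array in turn gave 36 to 5070 genes (lowest without mOct4 clone 1, highest without LcPOU5F3 clone 1), 0 to 18 replication genes and medians from -0.66 to -0.49. The labels tie no clone of a construct to a clone of another by its number, and the deviations of same-numbered mOct4 and LcPOU5F3 clones had a correlation of -0.0966 over genes. With the clone number as a replicate block on 4 arrays, limma called 0 genes and 0 replication genes, with 4398 and 13 at an unadjusted p under 0.05.

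In LcPOU5F1 against mOct4, 5 genes were called. The count was 749 with centring on the array median, 109 under quantile normalization, 13 under normexp, 29 with a trend, 496 with group weights, 529 on the 4 arrays alone and 42 at an adjusted p under 0.1. It was 0 without a filter and 0 when probes had to be measured on all 6 arrays, with 2336 and 1929 genes at an unadjusted p under 0.05, and 0 to 529 when each array was left out. The median of the replication genes was -0.27, 0.013 and -0.016 with the array median, with the 75th percentile of measured probes and under quantile normalization.

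In LcPOU5F1 against LcPOU5F3, 3003 genes and 17 replication genes were called. Group weights gave 1716 and 9, no filter 965 and 1, the 4 arrays alone 496 and 0 (24 replication genes at an unadjusted p under 0.05), and an adjusted p under 0.1 gave 4983 genes. A trend called 4370 genes and 26 replication genes, the array median 2353 and 0, and quantile normalization 3018 and 11. The median was 0.25 with the array median, 0.58 with the 75th percentile of measured probes, 0.72 with the median of the genes tested, 0.50 under quantile normalization and 0.55 under normexp. Leaving out each array gave 446 to 5853 genes, 0 to 19 replication genes and medians from 0.58 to 0.71. The causes of these differences were not tested.

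No called difference of a replication gene changed sign under these alternatives, while 61 uncalled differences did. Several alternatives could not change a sign, since they left every difference of these genes as it was. These were the filters, the intensity trend, group weights, the 4 arrays alone, the block and the omission of an array of the group not compared. Over all replication genes and these alternatives, leaving aside the wider threshold of 0.1, 1581 differences kept their direction and their side of the threshold, 227 lost the call and 56 gained it. Alternatives that could not move a difference, and fits that coincide, enter this tally, so it does not count independent checks. Having 2 arrays a group limits the precision, and all 35 genes tested were well above background on every array.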
